A study of Mus musculus with 183 samples.

Results

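The mRNAs that encode the cytoplasmic deadenylases and their partners were followed in mouse embryonic stem cells (mESCs) through a transcription shut-off. The 10 genes were taken by name from the CCR4-NOT complex (Cnot1, Cnot2, Cnot3, Cnot6, Cnot6l, Cnot7 and Cnot8), the PAN complex (Pan2 and Pan3) and the TOB adaptors (Tob1). All 10 were found among the 53380 genes of the half-life count table, and each was also among the 7240 mRNAs with a protein binding profile. The study asked which mRNAs depend on SKIV2L, the helicase that feeds mRNA to the cytoplasmic exosome, and on its partner AVEN. For half-lives, transcription in mESCs grown in serum with LIF was blocked with actinomycin D for 120, 240 or 360 min, and mock cells received DMSO. Clone 5F carried Rosa26 Cre-ERT2/- and Skiv2l fl/fl. Clone 7E was labelled Rosa26 Cre-ERT2/BirA-V6, Skiv2l 3xFLAG-Avi/3xFLAG-Avi and Aven-/-, and its title gives a combined Ski2 and Aven line. Its label does not name Skiv2l fl/fl. Titles of other RNA-seq samples of clone 7E name a Skiv2l conditional knockout with an Aven knockout. The paper also describes Skiv2l fl/fl lines made from tagged Aven-/- cells. Each clone was sampled at day 0 and after 4 days of 4-hydroxytamoxifen (4OHT) at 0.1 µM, which activates the Cre recombinase. One clone stood for each genotype, so clone and genotype cannot be told apart. The 16 groups of clone, day and time held 3 libraries each except clone 5F at day 0 and 120 min, with 2, giving 47 libraries in all. The study calls such replicates technical, so the p-values measure the spread between libraries. The binding profiles and the levels given with them came from other mESC lines, not from these clones. Per the paper, Skiv2l, Xrn1 or Mtr4 carried an endogenous FLAG-Avi tag in those lines. For binding, a line with tagged Aven was used too.

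Most mRNAs begin to decay by losing the poly(A) tail. The PAN2-PAN3 pair trims long tails, and CCR4-NOT removes the rest through paired nucleases, a CCR4-type enzyme (CNOT6 or CNOT6L) and a CAF1-type enzyme (CNOT7 or CNOT8), held by the CNOT1 scaffold together with CNOT2 and CNOT3. TOB1 brings the CAF1 enzymes to mRNAs whose tails are coated with poly(A)-binding protein. Core CCR4-NOT subunits are known to be needed for mESCs to stay undifferentiated.

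Counts per library added up to between 24440935 and 34114250, and no pair of libraries of 1 group agreed within sampling noise. Skiv2l mRNA stood at 147 to 148 CPM (counts scaled to library size) in the mock libraries of clone 5F at day 0 and at 132 to 153 in those labelled day 4. In clone 7E, Skiv2l was 31.2 to 36.1 CPM at day 0 and 12.4 to 13.8 at day 4, and Aven was 1.30 to 2.99 against 32.1 to 36.1 in clone 5F. The libraries of clone 5F labelled day 4 therefore showed no loss of the targeted mRNA as counted over the whole gene. Per the paper, Cre removes only part of Skiv2l, the exons that encode the catalytic domain. Reads from the remaining exons are still counted, so the whole-gene count need not fall after recombination. Loss of the removed exons themselves was not tested here. The authors checked recombination in their lines by separate RNA or protein assays. Summed over 6 genes, pluripotency markers stood at 2200 to 2729 CPM in every mock group. The 4 primitive endoderm markers added up to 70.4 to 101 CPM in clone 5F and to 9.01 to 10.5 in clone 7E, the 4 fibroblast markers to 22.6 to 27.5 and 2.72 to 4.86 CPM with Lum near 0, and the 3 neural markers to 59.6 to 72.2 and 106 to 133 CPM; the part of these markers in the differences between clones was not tested. The fibroblast sum rested mainly on Pdgfra, with 22.1 to 25.3 CPM in clone 5F at day 0. Col1a1 stood there at 1.57 to 2.40 CPM and Col1a2 at 0.611 to 0.791. In bulk libraries, fewer cells of a kind and less RNA per cell cannot be told apart.

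Per unit of length the members spanned a wide range of levels. In the 3 tagged lines used for binding, the median RPKM, reads scaled to transcript length and sequencing depth, was 110 for Cnot1, 80.7 for Cnot2, 53.8 for Cnot8 and 45.7 for Cnot7. Each of these levels lay apart from the next, since Cnot1 ranged from 98.9 to 148 RPKM over the lines, Cnot2 from 72.4 to 81.0, Cnot8 from 48.6 to 57.8 and Cnot7 from 44.2 to 46.6. Cnot3 (21.0 RPKM), Pan3 (20.2), Tob1 (17.9) and Cnot6 (17.0) followed with overlapping ranges. Pan2 (9.39 RPKM) and Cnot6l (3.70) were lowest, and 8.05% of mRNAs lay below Cnot6l. Among the nucleases, Cnot6 thus exceeded Cnot6l on the CCR4 side, while the CAF1-type genes Cnot8 and Cnot7 lay close to each other.

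In GRCm38, Cnot1 lies at chr8:95719451-95807464 and Cnot7 at chr8:40492540-40515847, both on the minus strand. Cnot2 (chr10:116485161-116581511, minus) and Pan2 (chr10:128303335-128321358, plus) are on one chromosome. Cnot6 (chr11:49671503-49712723, minus), Cnot8 (chr11:58104153-58118594, plus) and Tob1 (chr11:94211454-94215495, plus) are on another. Cnot6l (chr5:96070333-96164171, minus) and Pan3 (chr5:147430161-147548502, plus) share a chromosome too, and Cnot3 lies at chr7:3645268-3661109 on the plus strand.

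After actinomycin D, 5 of the 10 mRNAs fell faster than the median gene in every clone and day: Cnot2, Cnot6, Cnot6l, Cnot8 and Tob1. The scaffold mRNA, Cnot1, fell more slowly than the median gene in each of the 4 settings. The share of all genes called in the same direction in all 4 settings was not computed. These settings are not independent, since same-numbered libraries of the clones varied together. The test compares the slope of a gene over the 4 time points with that of the median gene (edgeR quasi-likelihood test, Benjamini-Hochberg adjustment), in log2 units per hour, so that a negative slope is a faster fall. In clone 5F at day 0, 6 members fell faster and 2 more slowly, where 34% of the 17032 genes tested fell faster and 29.7% more slowly. In the libraries labelled day 4 the members gave 5 faster and 1 slower, against 32.1% and 29.3% of all genes. Clone 7E gave 5 faster and 2 slower at day 0, against 32.4% and 29.2%, and 5 faster and 1 slower at day 4, against 28.3% and 24.8%. The median slope of the members was -0.086, -0.080, -0.069 and -0.068 in the 4 settings, and that of all genes was between -0.00093 and 0.0046.

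**Figure D1:**
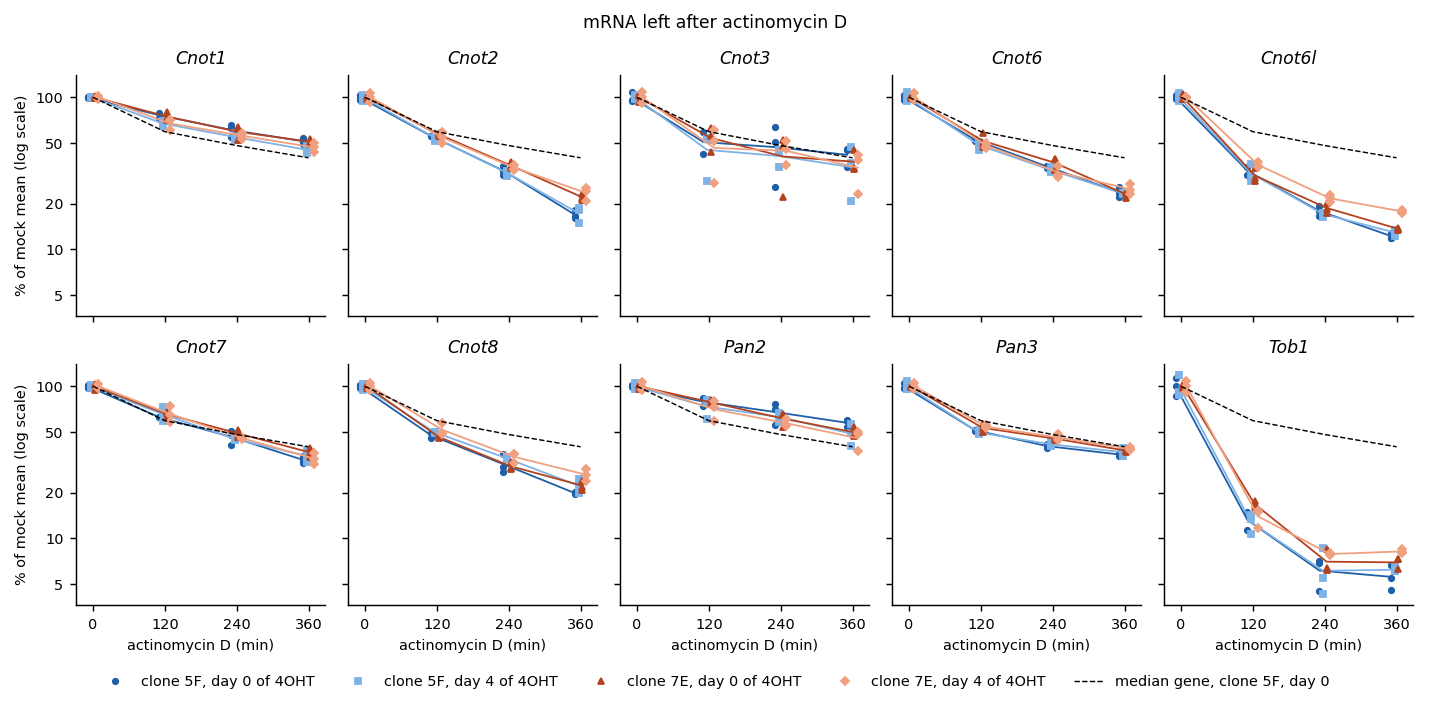
mRNA left after 120, 240 and 360 min of actinomycin D as a percentage of the mock mean of the same clone and day (log axis), after scaling to ERCC spike-ins; each point is 1 library, lines join the group means, and the dashed line is the median gene of clone 5F at day 0. Tob1 drops to 13.2% at 120 min in clone 5F at day 0 while Cnot1 stays above the median gene.

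Tob1, the adaptor, had the steepest slope. In clone 5F at day 0, 11.5% and 15.0% of its mock level were left in the 2 libraries at 120 min, and 4.56%, 6.74% and 5.48% in the 3 libraries at 360 min. The clone 7E libraries at day 0 held 17.6%, 16.9% and 16.0% at 120 min and 7.33%, 7.29% and 6.27% at 360 min. Nearly all of the fall came in the first interval, and from 240 to 360 min the group mean moved from 6.16% to 5.60% in clone 5F at day 0. The slope against the median gene was -0.50 ± 0.062 (SE, adjusted p = 6.62e-06) there, -0.46 ± 0.070 in the libraries labelled day 4, -0.43 ± 0.056 in clone 7E at day 0 and -0.39 ± 0.064 at day 4. Without the mock libraries the slopes were -0.16, -0.12, -0.18 and -0.041, and the call held only in clone 7E at day 0. A straight line over all time points gave half-lives of 87.3, 92.8, 94.5 and 104.5 min, and between 3.56% and 4.35% of the 10970 genes compared had a shorter one. Its counts after actinomycin D were low, from 40 to 171 reads per library, which limits the precision of each value.

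The paired CCR4-type enzymes differed in decay. Cnot6l left 12.9%, 11.9% and 12.0% of its mock level at 360 min in the 3 libraries of clone 5F at day 0, and Cnot6 left 23.8% ± 1.76 (SD, n = 3). Slopes against the median gene in clone 5F at day 0 were -0.29 ± 0.021 (SE, adjusted p = 2.63e-08) for Cnot6l and -0.12 ± 0.013 (adjusted p = 8.34e-07) for Cnot6. Half-lives ranged from 119 to 147 min for Cnot6l and from 175 to 182 min for Cnot6 over the 4 settings. The ratio of Cnot6l to Cnot6 counts within a library moved accordingly, from 0.260 ± 0.0089 (SD, n = 3) in mock cells to 0.134 ± 0.016 at 360 min in clone 5F at day 0, with no overlap between the groups.

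Among the CAF1-type enzymes, Cnot8 fell faster than Cnot7. At 360 min Cnot8 stood at 20.1%, 19.6% and 19.8% of its mock level in clone 5F at day 0, and Cnot7 at 32.8% ± 1.84 (SD, n = 3). Cnot8 passed the test in all 4 settings, with slopes from -0.17 to -0.095. Cnot7 passed it in clone 5F at day 0 (-0.047 ± 0.017, SE, adjusted p = 0.0258), and there not without replicate 1 or replicate 3 (adjusted p up to 0.218); the slopes in the other settings were -0.037, -0.018 and -0.040 and did not pass. Without the mock libraries Cnot7 was called faster in those 3 settings too, at -0.083 (adjusted p = 0.00933), -0.065 (adjusted p = 0.00603) and -0.092 (adjusted p = 0.00931). The count ratio of Cnot8 to Cnot7 in clone 5F at day 0 went from 1.12 ± 0.0064 in mock libraries to 0.675 ± 0.045 at 360 min.

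The core subunits did not share 1 rate. Cnot1, which had the most counts of the members, left 50.5%, 54.2% and 49.5% at 360 min in clone 5F at day 0, above the 40.0% left of the median gene. Its slope was 0.056 ± 0.017 (SE, adjusted p = 0.00992) there and 0.032, 0.058 and 0.046 elsewhere, with half-lives of 373, 321, 369 and 338 min. That call was fragile: it was lost in 2 or 3 of the 3 fits without 1 replicate in every setting (adjusted p up to 0.286), and without the mock libraries it was lost in all 4 settings, with slopes of -0.0051, 0.00078, 0.0063 and 0.021. Cnot2, by contrast, left 16.5%, 18.1% and 16.0% at 360 min and had a slope of -0.20 ± 0.023 (adjusted p = 2.31e-06), with half-lives of 142 to 173 min.

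Cnot3 passed in no setting, with slopes between -0.018 and 0.017 and SEs up to 0.039. Its values scattered by replicate number: replicate 1 was lowest at 120 min, replicate 2 at 240 min and replicate 3 at 360 min in both clones on both days, as in clone 5F at day 0, with 64.2%, 25.8% and 51.1% at 240 min. The lowest replicate of Cnot1 followed the same order in both clones on both days, with 60.6%, 53.0% and 43.8% in clone 7E at day 4. Pan2 did so in clone 5F on both days. For Cnot7 these replicates were instead the highest in the clone 5F libraries labelled day 4. The order was thus not particular to Cnot3, and its part in the slopes was not tested. The Cnot3 gene shares exonic bases with Leng1 on the opposite strand and with Mir3572 on its own. The kit named in the labels, TruSeq v2, does not mark strand, so reads from such shared bases cannot be assigned to 1 gene.

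The PAN mRNAs were not tested against each other. In clone 5F at day 0 the ratio of Pan3 to Pan2 counts within a library was 1.61 ± 0.075 (SD, n = 3) in mock libraries. At 360 min it was 1.00 ± 0.046. Mock and 360 min libraries overlapped in this ratio in clone 7E at day 4 alone, with 1.26 to 1.59 and 1.11 to 1.42. Pan2, the nuclease, left 60.2%, 58.7% and 53.6% at 360 min in clone 5F at day 0, where its slope was 0.085 ± 0.021 (SE, adjusted p = 0.00218). Its slope was 0.051 ± 0.021 in clone 7E at day 0 (adjusted p = 0.0435, and 0.0639 to 0.217 without any 1 replicate), 0.053 ± 0.023 in the clone 5F libraries labelled day 4 (adjusted p = 0.0564) and 0.037 ± 0.021 in clone 7E at day 4 (adjusted p = 0.148). Without the mock libraries neither call held, with slopes of 0.020 in clone 5F at day 0 (adjusted p = 0.648) and -0.020 in clone 7E at day 0 (adjusted p = 0.493). Pan3, the adaptor of PAN2, passed in no setting, with slopes from -0.028 to 0.0069, and its half-lives lay between 245 and 278 min. Over the 10 members the median share left at 360 min was 28.3%, 29.1%, 29.8% and 29.9% in the 4 settings, where all genes gave 40.0%, 39.6%, 39.7% and 39.5%. These shares rest on the spike-in factor, and the slopes against the median gene do not.

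**Figure D2:**
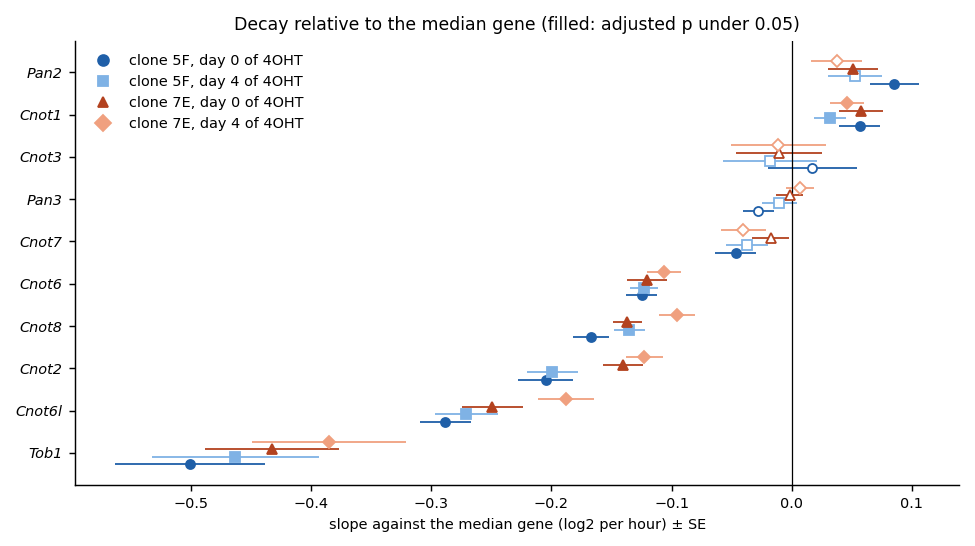
Slope of each mRNA against the median gene in log2 per hour (x axis; negative is faster decay) for both clones at day 0 and day 4; points are edgeR estimates, bars are 1 SE, and filled points have an adjusted p under 0.05. Tob1 lies at -0.50 to -0.39, and Cnot1 and Pan2 lie to the right of 0 in all 4 settings.

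Elements known to recruit deadenylases were sought in the 3′ untranslated regions (UTRs) of the member transcripts, read on the sense strand of GRCm38. ATTTA, the core of AU-rich elements, occurred in 9 of the 10 members and in 68.0% of the 6669 3′ UTRs with an annotation match. Per kilobase it was found 4.84 times in Cnot2, 4.21 in Cnot7, 4.09 in Cnot6l, 3.91 in Tob1, 3.53 in Cnot3, 3.52 in Cnot6, 2.98 in Cnot8, 1.42 in Pan3 and 1.05 in Cnot1, and not at all in Pan2, where the median over all 3′ UTRs was 1.30. The extended TTATTTATT, which contains ATTTA, was present in Cnot6l alone among the members and in 7.65% of all 3′ UTRs. TGTANATA, the letters read by Pumilio proteins, was present in Cnot1, Cnot6l, Cnot7 and Cnot8 and in 26.5% of all 3′ UTRs. Longer 3′ UTRs hold more matches by length alone, and those with TTATTTATT had a median of 2227 bases against 952 without it; the Cnot6l 3′ UTR, of 6847 bases, was longer than 98.8% of the others. Among the members with TGTANATA, Cnot6l and Cnot8 were called faster than the median gene in both clones on both days. Cnot7 was called faster in clone 5F at day 0, and Cnot1 was called slower, a call that was fragile as given above. The part of the motif in these rates was not tested. The sites below are all TTATTTATT and TGTANATA matches of the members and the ATTTA matches of Tob1, and the capitals mark the motif. ATTTA matches of the other members, such as the 1 of Cnot1, are not shown. Cnot1, Cnot6l, Cnot7 and Cnot8 each held 1 TGTANATA match.
Tob1, chr11:94214962-94214986, plus strand: ctcttacagtATTTAagatatagca
Tob1, chr11:94215052-94215076, plus strand: taattgtataATTTAatttagtaca
Tob1, chr11:94215057-94215081, plus strand: gtataatttaATTTAgtacaaagtt
Cnot6l, chr5:96071161-96071189, minus strand: agggaagagaTTATTTATTtttgtttcct
Cnot6l, chr5:96075176-96075203, minus strand: caaagtttgaTGTAAATAaaatattctt
Cnot8, chr11:58118529-58118556, plus strand: ttaagatgctTGTAAATAttatttatgt
Cnot7, chr8:40493921-40493948, minus strand: cacacatgctTGTATATAggttttatca
Cnot1, chr8:95720160-95720187, minus strand: tttgaacttgTGTAAATAtatgaaagag
The last 2 ATTTA matches of Tob1 overlap in their flanks, and the Cnot8 match lies 48 bases from the end of the transcript. All sequences were cut from the GRCm38 genome at the Gencode 3′ UTRs, which are exonic and lie after the stop codon.

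Over all mRNAs with a slope in clone 5F at day 0, the median slope was -0.057 for 3′ UTRs with TTATTTATT and 0.013 for those without, -0.056 with TGTANATA and 0.029 without, and -0.0099 with ATTTA and 0.047 without. These medians describe groups that also differ in length, and a match is not a bound site.

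The levels of the 10 mRNAs after 4 days of 4OHT were compared next, in mock libraries. In clone 5F, Cnot1 and Cnot3 were higher and Cnot8 was lower in the libraries labelled day 4. Cnot1 had 18100, 18606 and 18476 normalized counts at day 0 and 20316, 20608 and 20602 in those labelled day 4, a log2 change of 0.15 ± 0.041 (SE, adjusted p = 0.00901). Cnot3 went from 1390, 1596 and 1402 to 1772, 1801 and 1890 (0.31 ± 0.058, adjusted p = 0.000505). Cnot8 went from 2875, 2744 and 2864 to 2585, 2531 and 2370 (-0.18 ± 0.049, adjusted p = 0.00878). In each of these 3 the groups did not overlap, and 12.6% of the 16349 genes tested were called higher and 11.9% lower. The share of all genes whose libraries separate the days in this way was not computed. The other 7 did not pass, with changes from -0.11 to 0.044. Without replicate 1 or without replicate 3 only Cnot3 kept its call (Cnot1 adjusted p up to 0.121, Cnot8 up to 0.18), and without replicate 2 Pan3 joined the 3 (-0.18, adjusted p = 0.00781). Scaled to each library's own spike-ins, Cnot1 changed by 0.089 (adjusted p = 0.359), and Cnot3 and Cnot8 kept their calls. In the same libraries the summed pluripotency markers went from between 2651 and 2668 to between 2363 and 2473 CPM, and the primitive endoderm markers from between 95.1 and 101 to between 70.4 and 73.7 CPM; the part of these shifts in the changes of the members was not tested.

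In clone 7E the 3 called members, Tob1, Cnot8 and Pan2, were all lower at day 4. Tob1 had 621, 608 and 649 normalized counts at day 0 and 406, 371 and 439 at day 4 (-0.63 ± 0.079, SE, adjusted p = 7.84e-07). Cnot8 had 2758, 2752 and 2907 at day 0 and 2277, 2188 and 2032 at day 4 (-0.37 ± 0.054, adjusted p = 6.15e-06). Pan2 went from 1976, 1851 and 1962 to 1665, 1580 and 1800 (-0.20 ± 0.058, adjusted p = 0.0087). Day 0 and day 4 did not overlap for any of them, and 20.8% of the 16333 genes tested were called higher and 19.3% lower. The share of all genes that separate the days in this way was not computed. The median change of the members was -0.096, and that of all genes was -0.0077. Without replicate 1, Pan2 lost its call (adjusted p = 0.135), and without replicate 2, Pan3 was called (-0.17, adjusted p = 0.0295). These changes are relative to the other genes: ERCC spike-ins took 0.640% to 0.659% of counts in the 3 mock libraries of day 4 and 0.310% to 0.320% at day 0. Scaled to each library's own spike-ins, the median gene changed by -1.11 and all 10 members were lower, Cnot1 by -1.03, Cnot3 by -1.07 and Cnot7 by -1.03. The summed pluripotency markers went from between 2633 and 2729 CPM at day 0 to between 2200 and 2281 at day 4. Of these markers, 5 of 6 were called lower. The summed neural markers went from between 123 and 133 to between 106 and 109 CPM. Sox1 (log2 change -2.05) and Pax6 (-0.32) were called lower, while Tubb3 had means of 63.0 CPM at day 0 and 64.5 at day 4. Col1a1 (1.17) and Col1a2 (1.30) were called higher, with means of 2.25 and 0.474 CPM at day 4. The part of all these markers in the changes of the members was not tested.

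**Figure D3:**
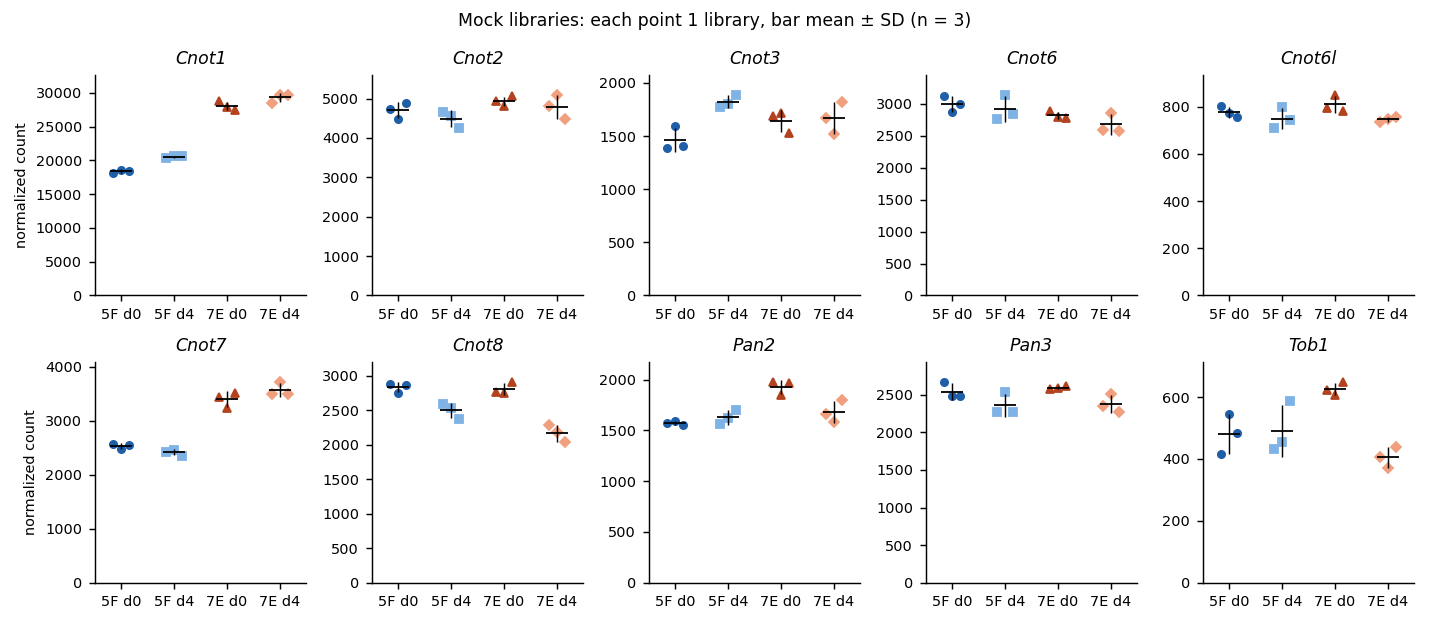
Normalized counts of the 10 mRNAs in the mock libraries of each clone (5F, 7E) and day of 4OHT (d0, d4), 1 point per library, with the mean and SD over 3 libraries as bars. Tob1 stands at 608 to 649 in clone 7E at day 0 and at 371 to 439 at day 4, and Cnot1 is higher in clone 7E than in clone 5F.

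The change with 4OHT itself differed between the clones for Tob1 (clone 7E minus clone 5F -0.65 ± 0.14, SE, adjusted p = 0.00353), Cnot3 (-0.29 ± 0.093, adjusted p = 0.0445) and Pan2 (-0.25 ± 0.076, adjusted p = 0.0364), where 11.9% of the 17209 genes tested differed. Tob1 in clone 5F stood at 415, 544 and 483 normalized counts at day 0 and 433, 453 and 587 in the libraries labelled day 4, which overlapped. Only Tob1 kept its call in each fit without 1 replicate; Pan2 lost it in all 3 (adjusted p 0.0898 to 0.244) and Cnot3 without replicate 1 or 2 (adjusted p up to 0.352). Because libraries of the clones with the same number, day and time varied together, the fit was repeated with these pairs as a block, and 6 members then differed (24.1% of genes), with Cnot1 (-0.092, adjusted p = 0.0182), Cnot7 (0.14, adjusted p = 0.0123) and Cnot8 (-0.19, adjusted p = 0.00106) added.

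Before 4OHT, 5 members were higher in clone 7E than in clone 5F and none was called lower, against 20.4% of the 16299 genes higher and 19.4% lower. The scaffold Cnot1 differed most, with 28730, 27847 and 27541 normalized counts in clone 7E against the 18100 to 18606 of clone 5F (0.61 ± 0.038, SE, adjusted p = 4.61e-12). Cnot7 had 3444, 3234 and 3518 against 2573, 2477 and 2556 (0.43 ± 0.044, adjusted p = 3.23e-08). Neither overlapped between the clones, and the share of all genes that separate the clones in this way was not computed. Tob1 (0.38 ± 0.080, adjusted p = 0.000492) and Pan2 (0.30 ± 0.048, adjusted p = 2.01e-05) were also higher without overlap, and Cnot3 (0.17 ± 0.059, adjusted p = 0.0234) with overlap and not without replicate 1 (adjusted p = 0.301) or replicate 3 (adjusted p = 0.0576). With same-numbered libraries paired, Cnot2 (0.073, adjusted p = 0.0104) and Cnot6 (-0.080, adjusted p = 0.0189) were called as well, where 49.6% of genes were called. Under scaling to each library's own spike-ins the median gene shifted by -0.17, and of the members Cnot1 and Cnot7 were called higher and Cnot6 and Cnot8 lower.

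The balance of the CAF1 mRNAs was read within each library. The mock count ratio of Cnot8 to Cnot7 was 1.12 ± 0.0064 in clone 5F at day 0, 1.03 ± 0.029 in its libraries labelled day 4, 0.826 ± 0.025 in clone 7E at day 0 and 0.606 ± 0.039 at day 4 (SD, n = 3 each). No library of one group fell in the range of another. At 360 min the ratio stood at 0.675, 0.657, 0.499 and 0.475, with 0.629 to 0.719 in clone 5F at day 0 overlapping the 0.646 to 0.665 of those labelled day 4. The Zdhhc2 gene shares exonic bases with Cnot7 on the opposite strand, so part of the Cnot7 counts cannot be assigned. Likewise the antisense gene 4930513N10Rik overlaps Cnot1, and 5330438D12Rik overlaps Cnot2.

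No member was called as decaying at another rate after 4OHT relative to the other genes. For these tests, size factors were set within each time point over both clones and days, with 1 spike-in factor per time point. A change in decay shared by most genes is thus removed beforehand. The median gene changed by 0.0020 log2 per hour in clone 5F and by -0.0016 in clone 7E. In clone 5F, 0 of the 10 passed by edgeR, DESeq2 or limma, where 35 of 17901 genes did by edgeR (0.196%); the members' slopes changed by -0.037 to 0.035 log2 per hour. At an unadjusted edgeR p under 0.05 there were 0 members and 674 genes. In clone 7E, 0 of the 10 passed by the same tools, where 154 of 17417 genes did by edgeR (0.884%), and 0 members and 1510 genes had an unadjusted p under 0.05. The difference between the clones was called for 0 of 18623 genes (0%) by edgeR, with 476 at an unadjusted p under 0.05, 4 by DESeq2 and 0 by limma. With same-numbered libraries of the clones paired within each time point it was called for 463 genes and 0 members. Cnot6l had the widest shift in clone 7E, 0.059 ± 0.056 (SE, adjusted p = 0.875). At 360 min its share left was 13.7%, 13.8% and 13.5% at day 0 and 18.3%, 17.5% and 17.6% at day 4, without overlap. How many of all genes separate in this way at 360 min was not computed. A fit to the mock and 360 min libraries alone, chosen after these values were seen, called Cnot6l (0.064 per hour, adjusted p = 0.0323), where 5.24% of genes were called.

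Decay was also set between the clones before 4OHT with the same scaling, where 7 of 17766 genes passed (0.0394%) and 0 members did. Cnot2 came nearest, falling more slowly in clone 7E by 0.061 ± 0.015 log2 per hour (SE, unadjusted p = 0.000542, edgeR adjusted p = 0.344). Its share left at 360 min was 21.3%, 23.1% and 21.7% in clone 7E and 16.5%, 18.1% and 16.0% in clone 5F, and the clones did not overlap. How many of all genes separate the clones in this way was not computed. The call for Cnot2 depended on the method. DESeq2 called it (adjusted p = 0.0304), as did the mock and 360 min libraries alone (0.064, adjusted p = 0.0035, with 4.49% of genes called). With same-numbered libraries of the clones paired within each time point, Cnot2 (0.060, adjusted p = 6.4e-05) and Pan2 (-0.037, adjusted p = 0.0198) passed, against 9.88% of genes.

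Binding to the decay machinery was measured by CRAC, in which a tagged protein is crosslinked to RNA by ultraviolet light and the bound fragments are sequenced. The values are the authors' pooled ones, without replicate error. For each mRNA the shares of MTR4 (nuclear exosome helicase), SKIV2L and XRN1 (cytoplasmic 5′-3′ exonuclease) add up to 1, so a high share of one lowers the others. The series holds 6 CRAC libraries of SKIV2L, 5 of XRN1, 3 of MTR4 and 3 of AVEN without inhibitor in otherwise unedited tagged lines. The paper also counts published MTR4 data among its replicates. The median over the 10 members was 0.397 for MTR4, 0.217 for SKIV2L and 0.353 for XRN1, where all 7240 mRNAs gave 0.319, 0.267 and 0.337.

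Members at the ends of these distributions were Cnot6l, Cnot7, Tob1 and Cnot3. Cnot6l had an XRN1 share of 0.744, above 99.2% of mRNAs, with 0.036 for SKIV2L, which only 0.373% of mRNAs fell below. After the authors' correction for RPKM its XRN1 value lay above 86.9% of mRNAs. Cnot7 had an MTR4 share of 0.672, above 93.5% of mRNAs, and a SKIV2L share of 0.040, above 0.677%. Tob1 leaned to XRN1, with 0.564 (above 90.6%). Cnot3 went the other way, with 0.139 for XRN1 (above 8.33%) and 0.421 for SKIV2L (above 78.9%). Its AVEN value of 0.794, a separate ratio that is not one of these shares, lay above 98% of mRNAs. A figure legend of the paper sets AVEN counts relative to the SKIV2L, XRN1 and MTR4 counts together. Whether the deposited value is that ratio is not stated. Within both enzyme pairs the paralogs differed: Cnot8 had 0.208 for SKIV2L and 0.469 for MTR4, and Cnot6 had 0.142 for SKIV2L and 0.460 for XRN1. The remaining 4 members lay between 0.298 and 0.412 for MTR4 and between 0.339 and 0.377 for XRN1.

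**Figure D4:**
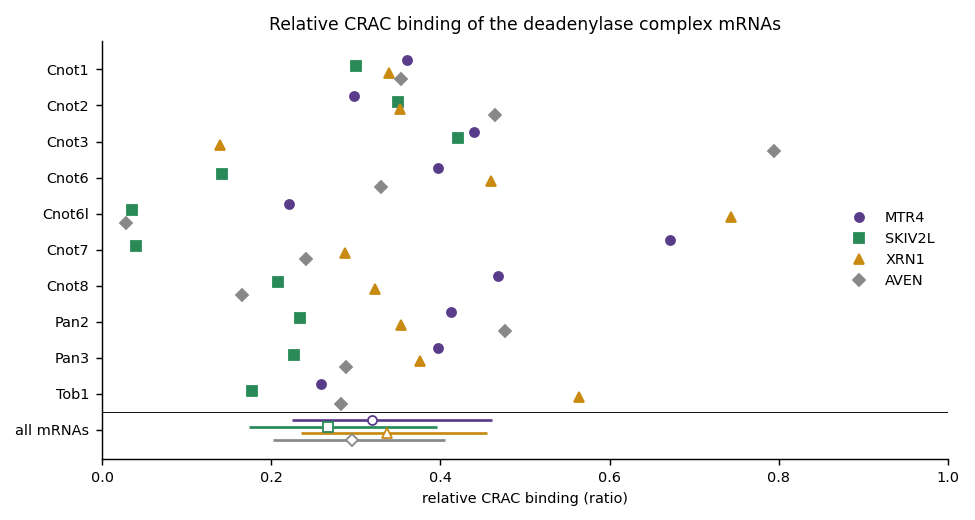
Relative CRAC binding (x axis, ratio) of MTR4, SKIV2L, XRN1 and AVEN for each of the 10 mRNAs, with the median and the interquartile range over all 7240 mRNAs in the bottom row. Cnot6l is at 0.744 for XRN1 and Cnot7 at 0.672 for MTR4, and both are at or under 0.040 for SKIV2L.

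Genes of the same pathway outside the 10 were counted as lists. In clone 5F at day 0, 3 of the 4 other BTG/TOB genes tested, which also bind CAF1 enzymes, fell faster than the median gene (edgeR, adjusted as above) and none more slowly, where 34% and 29.7% of all genes did: Btg1 (-0.60 ± 0.043, SE), Tob2 (-0.56 ± 0.040) and Btg2 (-0.48 ± 0.029). The median slope over all 4 was -0.52. Of 7 other deadenylases, 4 fell faster and 0 more slowly, with Noct, a circadian member of the family, at -0.51 ± 0.018. Among 4 other CCR4-NOT subunits, Cnot4, a ubiquitin ligase, fell faster (-0.30 ± 0.019), as did Cnot11 (-0.040 ± 0.012), and Cnot10 more slowly (0.096 ± 0.017). Enzymes that extend or modify tails gave 6 faster and 1 slower of 7, and 9 poly(A) tail binding genes gave 2 faster and 3 slower, with Pabpc1, the main cytoplasmic poly(A)-binding protein, at 0.13 ± 0.025.

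With 4OHT in clone 7E, the other BTG/TOB genes moved both ways, with Btg2 higher (0.63 ± 0.055, SE, adjusted p = 2.24e-09) and Tob2 lower (-0.23 ± 0.073, adjusted p = 0.014) by edgeR. Noct rose (0.46 ± 0.048, adjusted p = 3.39e-08) among 7 other deadenylases, of which 2 fell (20.8% of all genes were called higher and 19.3% lower). Under scaling to each library's own spike-ins the median gene of this comparison moved by -1.11, as given above. In clone 5F, 0 of 4 other BTG/TOB genes passed, with 1 at an unadjusted p under 0.05, where 12.6% of all genes were called higher and 11.9% lower and 5852 of 16349 had such a p.

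Over the 16 group means, the genes most like Cnot1 in log2 level among 9874 genes were Tubgcp3 (Pearson r = 0.995), Vac14 (0.995) and Dhx38 (0.994). Those most like Tob1 were Spry4 (0.996), Bcl7a (0.995) and Plagl2 (0.995). All points share the actinomycin D time course, and no test was made.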

How the data were processed

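For half-lives, 47 libraries of total RNA were used. Per the paper, the authors aligned reads with STAR to GRCm38 with ERCC sequences, and deposited raw counts per gene of uniquely mapped reads. The labels name the TruSeq v2 kit, which does not mark strand; how strand was treated in counting is not stated. They also deposited relative CRAC binding (a ratio, pooled libraries), RPKM and an RPKM-corrected binding score per mRNA. The deposited half-lives and the authors' fold changes and p-values were not used, and 0 per-sample columns were left out.

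Counts were scaled with DESeq2 size factors and tested with edgeR 4.0.16 (quasi-likelihood) in R 4.3.3 after a filter on low counts. Each test used the libraries of the groups it compares, and p-values were Benjamini-Hochberg adjusted over all genes tested, with 0.05 as the threshold. An SE is the absolute log2 change divided by the square root of F. For shares left and half-lives, counts were multiplied by 1 ERCC factor per time point (1, 0.649, 0.531 and 0.438). This factor was the median ratio of gene counts to ERCC counts, relative to the mock libraries. The methods write of dividing by such a factor. Half-life fits used a pseudocount of 1, and shares left used none. The tests of decay between days or clones used the same ERCC factor. For these tests, shares and half-lives, size factors were set within each time point over both clones and days. Differences between clones or days in them are therefore relative to the median gene. DESeq2 1.42.0 and limma 3.58.1 served as alternatives, and the scripts were tested on simulated data. 3′ UTRs came from Gencode M21.

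Whether replicate numbers pair libraries was checked by correlating deviations from group means. Same-numbered libraries of the clones at the same day and time correlated above 0.1 in 11 of 11 pairs at day 0 and 12 of 12 at day 4 (lowest 0.104), and mock libraries of the days within a clone in 0 of 3 pairs per clone; with actinomycin D, 7 of 8 (clone 5F) and 6 of 9 (clone 7E) pairs of the days did, so not every pair passed and the days were not treated as paired. Comparisons between clones are therefore given with the block too. The pairing comes from the data, not the labels. The members and lists were chosen with earlier results of these data known. All 10 members are named. Listed genes are named where they pass, at most 4 per list and comparison, and the 3 genes most like Cnot1 and Tob1 by Pearson correlation. The fits to mock and 360 min libraries and the block within time points were added after seeing the data.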

Additional observations from a re-analysis of the deposited data

Results flagged for a closer look

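For 3 members the change in level with 4OHT differed between the clones by a test of the difference (edgeR quasi-likelihood test, clone 7E minus clone 5F, Benjamini-Hochberg adjustment). Tob1 differed by -0.65 (adjusted p = 0.00353), Cnot3 by -0.29 (adjusted p = 0.0445) and Pan2 by -0.25 (adjusted p = 0.0364), all on the log2 scale. Pan2 lost its call without any 1 replicate (adjusted p 0.0898 to 0.244), and Cnot3 without replicate 1 or 2 (adjusted p up to 0.352) and with the plain replicate block (adjusted p = 0.0607).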

How the results depend on the processing

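Of 1210 member tests under an alternative, 1129 stayed on their side of the threshold; among them, values called in neither fit may change sign. A value called in at least 1 of the fits changed sign in 7. Scaling to own ERCC counts called all 10 members in the level change of clone 7E (Cnot1 -1.03, Cnot3 -1.07, Cnot7 -1.03) and 10 in the difference between clones (Cnot2 -1.0, Cnot7 -0.89); it moved the median share left at 360 min to 32.6% and the median half-life to 227 min in clone 7E at day 4, where spike-ins took the larger share of counts. It called 14974 genes in the level change of clone 7E and 14372 in the difference, against 6552 and 2056. Without the mock libraries, 5 members were called in the decay of clone 5F at day 0 (Cnot1 -0.0051), Pan2 in clone 7E at day 0 had -0.020, and median half-lives were 233, 252, 255 and 289 min. Without the spike-in factor, median shares left were 64.6%, 66.5%, 68.2% and 68.3%. In the decay between clones, DESeq2 called 1 member. The mock and 360 min libraries called 1 there and 1 in the decay change of clone 7E.

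The replicate block within each time point called 6 members in the level difference and 2 in the decay between clones, and 4151 and 1756 genes against 2056 and 7; in the decay change difference it called 463 genes and 0 members. The plain replicate block, within clones across days, lost Cnot1 in the level change of clone 5F (adjusted p = 0.0719); numbers do not pair there. It also lost Cnot3 in the difference between clones (adjusted p = 0.0607), and Cnot1 of the clone 5F libraries labelled day 4 (adjusted p = 0.0817) and Pan2 of clone 7E at day 0 (adjusted p = 0.0534) in the decay against the median gene. Leaving out 1 replicate gave 1 to 4 members in the level change of clone 5F, 1 to 2 in the difference, and median shares of 26.6% to 28.0% (clone 5F labelled day 4) and 28.5% to 30.4% (clone 7E, day 0). The decay change of clone 5F called 2 to 119 genes over the alternatives and that of clone 7E 26 to 886. The causes were not tested.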
